A study of Brassica napus with 6 samples.

Results

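Gene expression in flower buds was set against that in seedlings of the oilseed rape hybrid HZ62 (Brassica napus), over every gene that the deposited normalized table lists, 80932 genes on 19 chromosomes and unplaced sequences. The 4 libraries were taken from the 6 of the series by their labels: 2 of flower buds under 2 mm, and 2 of seedlings aged 2 weeks. The other 2, of siliques 3 to 5 cm long, entered the fit for its estimate of spread. All were labelled wild type and came from plants kept at 22 °C for 16 h of light and at 18 °C for 8 h of dark. The deposited count table ends inside chromosome C3, so 29608 of the 35496 genes listed on C3 to C9 have values in the normalized table alone, and these chromosomes are described in most detail.

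Oilseed rape is an allotetraploid whose A chromosomes descend from Brassica rapa and whose C chromosomes descend from Brassica oleracea, so most genes have a close copy in the other subgenome. A young flower bud holds dividing and differentiating organs, among them anthers in which pollen is being formed, while a seedling is made largely of green leaf, stem and root. Photosynthetic tissue is known for a small number of very abundant messages from nuclear genes of the chloroplast. Neither the files nor the reference table pair the identifiers with gene names, since 0 of 80932 identifiers matched. The tissue labels could therefore not be checked against marker genes, and genes are described by level, chromosome and order. In such whole-organ samples fewer cells of a type and less RNA per cell cannot be told apart.

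The flower bud libraries held 12614212 and 12543622 reads, and the seedling libraries 24110359 and 3973408. Levels below are the authors' normalized values, close to CPM, after 1 further scaling factor per library, and are called rescaled values. They carry no correction for gene length. Fold changes are on the log2(rescaled value + 1) scale, flower bud over seedling, which understates changes of weakly expressed genes. Called genes had at least a 2-fold change and an adjusted p under 0.05 (Benjamini-Hochberg) in limma. The seedling libraries differed more from each other than the flower bud libraries did: over tested genes of C3 to C9 the median gap was 0.15 log2 between bud libraries and 0.36 log2 between seedling libraries. Reads that match both copies of a gene pair may be assigned to either or to none, and how the authors treated them is not given in the sources used here.

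Genes to be named were sought on C3 to C9 among those that the deposited count table lacks. They also needed a mean of at least 50 in the higher tissue. Of these, the 2 with the strongest rise and the 2 with the strongest fall show differences close to on and off. ZS11C09G042050, the 3084th of 5461 genes listed on C9, had rescaled values of 430 and 449 in the flower bud libraries, against 0 reads in both seedling libraries. It also had 0 reads in both silique libraries. In either bud library its level was at least 3669-fold the level that 3 reads over both seedling libraries would give (limma adjusted p = 3.11e-06, edgeR adjusted p = 3.44e-07). ZS11C06G010140, the 685th of 3919 genes on C6, had 428 and 412 in flower buds and 0 reads in seedlings, by the same bound at least 3519-fold higher (limma adjusted p = 3.11e-06).

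The genes that fell were as sharply divided. ZS11C04G036690, the 2538th of 5314 genes on C4, had 0.14 and 0.416 in flower buds, from 2 and 6 reads, against 409 and 690 in seedlings. Its mean was 1978-fold lower in flower buds, a fitted log2 change of -8.71 ± 0.25 (SE; limma adjusted p = 4.38e-06). In siliques it stood between, at 18.6 ± 0.463 (SD, n = 2). ZS11C05G011220, the 926th of 4576 genes on C5, had 0 reads in both flower bud libraries, against 412 and 405 in seedlings, at least 3878-fold lower (limma adjusted p = 3.11e-06). Absence of overlap between the tissues and a call were conditions for naming these genes. Each was called in the same direction under all 18 alternative settings. They were chosen from 437 genes higher and 837 lower that met the same conditions.

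**Figure D1:**
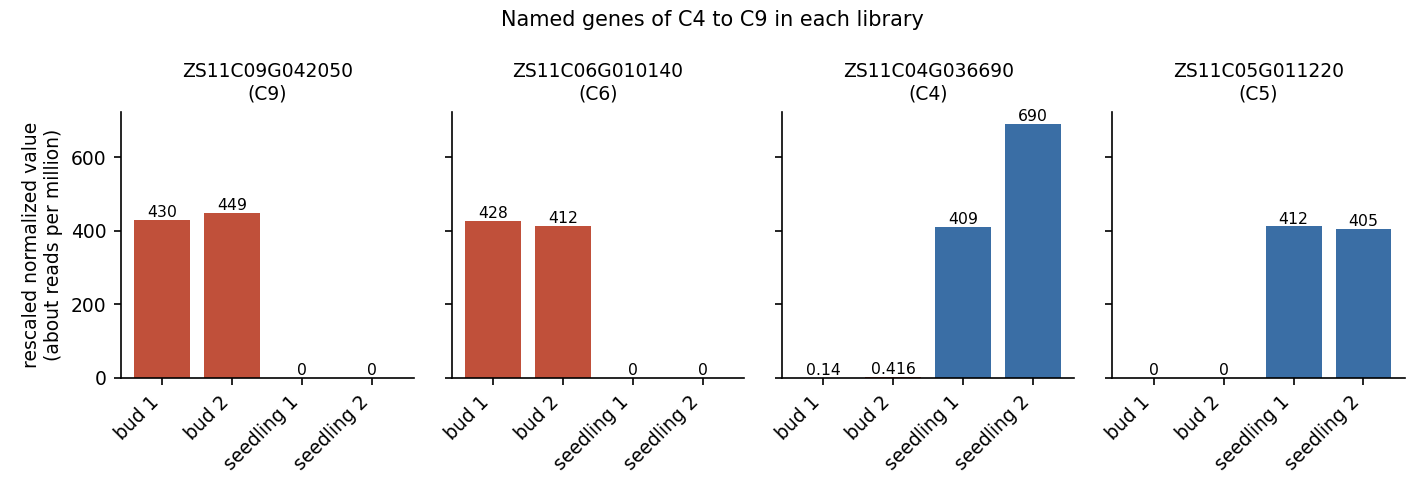
Rescaled normalized values, close to CPM, of 4 genes in the 2 flower bud libraries (red) and the 2 seedling libraries (blue), with the value above each bar. The 2 genes on the left stand at 412 or above in flower buds and at 0 in seedlings, and the 2 on the right are at or near 0 in flower buds.

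Of the 35496 genes listed on C3 to C9, 5214 had no read in the 4 libraries, 9364 had reads but did not reach a normalized value of 1 in 2 of them, and 20918 were tested. Of these, 4065 were higher and 4137 lower in flower bud, that is 19.4% and 19.8%. Over all 49058 tested genes, 10063 were higher (20.5%) and 9968 were lower (20.3%), together 40.8%. The called share was thus 39.2% on C3 to C9 and 42.0% on the remaining chromosomes and unplaced sequences. Among the latter it was 42.4% on the A chromosomes and 40.3% on C1 and C2 together. The differences between these shares were not tested, because genes are not independent samples. In every called gene of C3 to C9 the libraries of the tissues did not overlap. Over all tested genes of these chromosomes this held for 80.1%, so the absence of overlap alone says little.

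Falls were larger than rises on this scale. On C3 to C9 the median log2 change of higher genes was 1.5 and that of lower genes -1.81. At least an 8-fold change was reached there by 359 of the higher genes (8.83%) and by 700 of the lower ones (16.9%). Over all tested genes these were 979 (9.73%) and 1628 (16.3%). The absence of reads was more often met in seedlings: 419 of the higher genes of C3 to C9 had no read in seedling, and 241 of the lower genes had no read in flower bud. Over all tested genes these numbers were 1106 and 555. The reads behind these zeros were 28083767 in both seedling libraries and 25157834 in both flower bud libraries. More genes of C3 to C9 reached a normalized value of 1 in both libraries of flower bud than of seedling, 18928 against 17730. This count uses the authors' scaling, and in the shallow second seedling library 1 read is worth a rescaled value of 0.33, against 0.044 in the first. The part of scaling and depth in this count was not tested.

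The balance of higher and lower genes rests on the scaling of the libraries. The median log2 change of all tested genes was 0.15 after the scaling used here and 0.53 with the authors' scaling as deposited. With the authors' scaling 15737 genes were higher (32.1%) and 7488 lower (15.3%), together 47.3%, which moved the share of higher genes among all calls to 67.8%, against 50.2%. The edgeR test on reads recovered from the same values called 10625 higher (21.7%) and 10843 lower (22.1%), together 43.8%, with 49.5% of the calls higher. Of the genes of C3 to C9 called higher here, it called 93.8% in the same direction, and of those called lower 99.8%. The count of rises on C3 to C9 also changed when 1 library of either tissue was left out. The median log2 change of tested genes there was 0.047 without flower bud replicate 1 and 0.044 without replicate 2. It was 0.163 without seedling replicate 1 and 0.096 without replicate 2, against 0.138 with all libraries. The cause was not tested.

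The share of called genes differed between classes of expression level. Tested genes were put in classes by their mean rescaled value over the 4 libraries, with edges at 1, 4, 16 and 64 and a top class set off by 1 further 4-fold step. In the 3 classes from 1 up to 64, which hold 5262, 8010 and 5657 tested genes of C3 to C9, between 36.2% and 39.0% were called. The balance turned within them: 19.9% were higher and 19.1% lower from 1 to 4, 20.7% and 17.0% from 4 to 16, and 15.9% and 20.3% from 16 to 64. In the class above 64 the called share was 56.5%, and 420 genes were lower against 209 higher. In the top class, 100 of 129 genes were lower (77.5%) and 9 were higher (6.98%), and the median log2 change of the class was -2.74. The weakest class, under 1, showed the opposite balance with 32.0% higher and 13.4% lower. A gene enters it only by reaching a normalized value of 1 in 2 libraries, so those members had to differ between the tissues or lie near the minimum. The minimum was set before rescaling, which divided values by 1.147 and 1.148 in flower bud, and by 0.8496 and 0.8275 in seedling. Flower bud libraries thus met it at lower rescaled values than seedling libraries did. The part of this in the balance of the class was not tested.

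The 129 genes of the top class took a larger share of the reads in seedling than in flower bud. Together they took 2.91% and 2.75% of the reads of the flower bud libraries, against 7.51% and 12.3% in seedling replicates 1 and 2. The median gene of the class had rescaled values of 123 and 117 in flower bud, against 439 and 823 in seedling, and the single highest value was 841 and 802 in flower bud, against 3275 and 8335 in seedling. Levels in flower bud were nearly the same in both libraries, while seedling replicate 2 lay above replicate 1 in 113 of the 129 genes and in 99 of the 100 lower ones. The direction was the same with either seedling library alone: 104 genes of the class were lower without replicate 1 and 97 without replicate 2. Without a flower bud library 83 and 75 were lower. A single library of a tissue was assumed in such fits to vary like the other groups.

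Because the level of a gene in these classes comes from the libraries that are compared, the classes were also formed from the silique libraries, which are no side of the comparison. This alternative was chosen after the data were examined. Over all tested genes, 40.8% of the top class by silique level were lower in flower bud and 19.9% higher. In the top class by silique level, 48 of 109 genes of C3 to C9 were lower in flower bud (44.0%) and 20 were higher (18.3%), with a median log2 change of -0.73. More lower than higher genes were found in this class under all 18 alternative settings, with between 25.7% and 51.4% lower. Without flower bud replicate 2 the lower genes in it numbered 28. In the class above 64 the balance was even, with 269 lower and 270 higher. Of the 2693 genes with a silique level under 1, 850 were higher and 880 lower, but these counts were 332 and 369 with a pseudocount of 4, and 461 and 474 when testing against a 2-fold change.

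**Figure D2:**
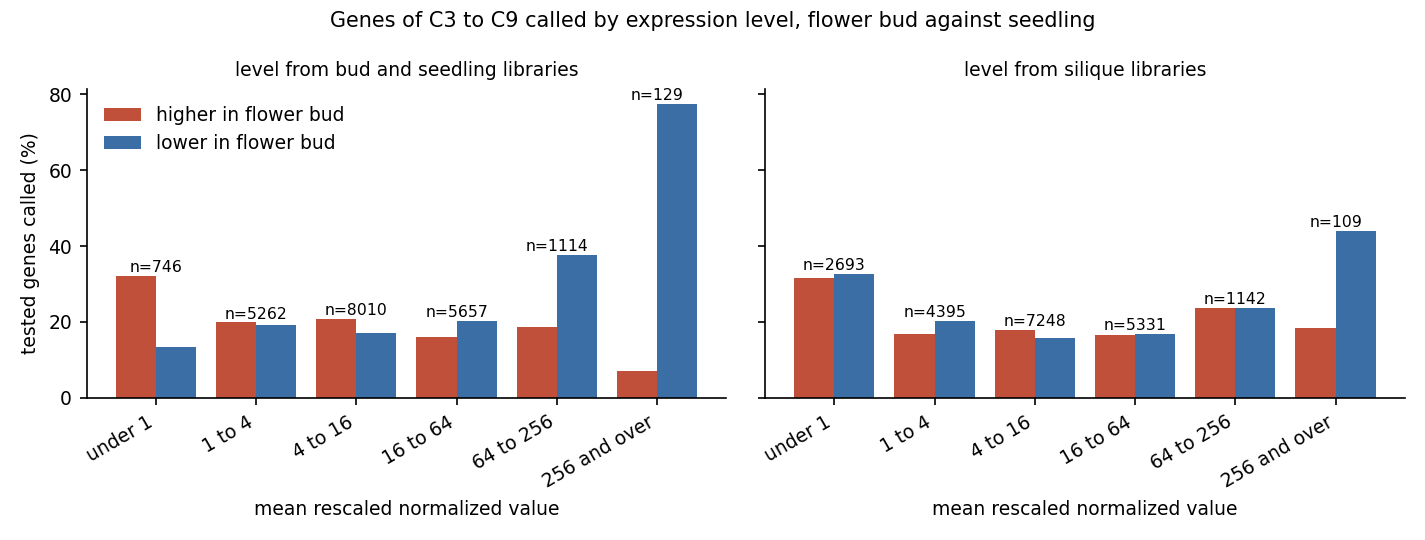
Percent of tested genes of C3 to C9 called higher (red) or lower (blue) in flower bud against seedling, by the mean rescaled normalized value of the gene, with the number tested above each class. Levels come from the 4 compared libraries on the left and from the 2 silique libraries on the right. The lower share reaches 77.5% on the left and 44.0% on the right in the top class.

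The lists of most abundant genes of the tissues had few members in common. Of the 100 genes of C3 to C9 with the highest mean in flower bud and the 100 with the highest mean in seedling, 16 were the same (16% of each list), and of 1000 in each list, 410 were (41%). Of the 100 most abundant seedling genes 95 were lower in flower bud and 0 were higher. Of the 100 most abundant flower bud genes 55 were higher and 11 lower. As each list was chosen on levels of the contrast, these counts are a description. Entry into the bud list needed a mean of 208, and entry into the seedling list a mean of 472. Those 100 bud genes took 3.79% and 3.71% of the flower bud reads, whereas the 100 seedling genes took 6.70% and 11.5% of the seedling reads, so the bud list held the smaller share of its own tissue's reads.

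The called genes of C3 to C9 were also described by their reads. As they were chosen by this same contrast, the direction of these shares is set by the choice. The 4065 genes higher in flower bud gave 28.7% and 29.0% of the reads of these chromosomes in flower bud, against 8.00% and 4.28% in seedling. The 4137 lower genes gave 12.5% and 12.2% in flower bud, against 45.5% and 59.3% in seedling. The 12716 tested genes that were not called held the rest but for a small part, 58.2% and 58.3% of the bud reads and 45.9% and 36.0% of the seedling reads.

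By chromosome, the called share varied within a narrow range. Among C3 to C9 it was highest on C4 with 42.0% and lowest on C9 with 38.0%. The share of higher genes ran from 18.3% on C9 (Wilson 95% interval 17.0 to 19.7) to 20.9% on C4 (19.5 to 22.4), and the intervals overlapped. The share of lower genes ran from 18.7% on C5 (17.3 to 20.2) to 21.1% on C4 (19.6 to 22.6), again with overlapping intervals. The intervals treat genes as independent, which neighbours are not. C4 had the largest share of called genes under 18 of 19 settings, the one used here included, and C9 the smallest under 13 of them. All 7 chromosomes lay below the 40.8% of all tested genes but for C4. The A chromosomes ran from 40.5% to 45.5%, and C1 and C2 had 39.8% and 40.7%.

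The balance of rises and falls differed little among these chromosomes. On C5, 564 genes were higher and 520 lower, and on C7 509 were higher and 567 lower. C3 had 826 higher and 806 lower, C4 623 and 628, C6 424 and 460, C8 527 and 518, and C9 592 and 638. The median log2 change of tested genes lay between 0.09 on C6 and 0.18 on C4. Genes with no read in seedling and called higher were most numerous on C3, with 86, and least on C6, with 35, the chromosomes with the most and the fewest tested genes.

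The share of a library's reads that fell on each chromosome was very stable between the flower bud libraries and less so between the seedling libraries. C4 held 6.31% and 6.31% of the reads on chromosomes in flower bud, against 6.61% and 7.55% in seedling, a difference of -0.77 percentage points. C5 went the other way, with 5.93% and 5.95% in flower bud, against 5.71% and 5.46% in seedling. C3 held 8.63% and 8.64% in flower bud, against 8.82% and 8.84% in seedling, and C9 held 6.71% and 6.73%, against 6.95% and 7.01%. The difference on C6 was 0.063 points, and on C7 and C8 the tissues overlapped. With 2 libraries against 2, an exact two-sided permutation test has 0.333 as its smallest p, and the 16 chromosomes of 19 without overlap had that p.

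A few abundant genes took a sizeable part of the seedling reads on C4. The 10 genes of C4 with the largest seedling share took 0.222% and 0.200% of the reads on all chromosomes in flower bud. In seedling they took 1.09% and 2.47%, where C4 as a whole held 6.61% and 7.55%. All 10 were called lower. On C3 the same number of genes took 0.214% and 0.197% of the reads on all chromosomes in flower bud, against 1.16% and 2.02% in seedling. This was not particular to C4, since on each of the 19 chromosomes between 8 and 10 of the 10 such genes were called lower. The genes were chosen on their seedling reads, so these shares are a description, and their part in the difference between the chromosome shares was not tested.

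**Figure D3:**
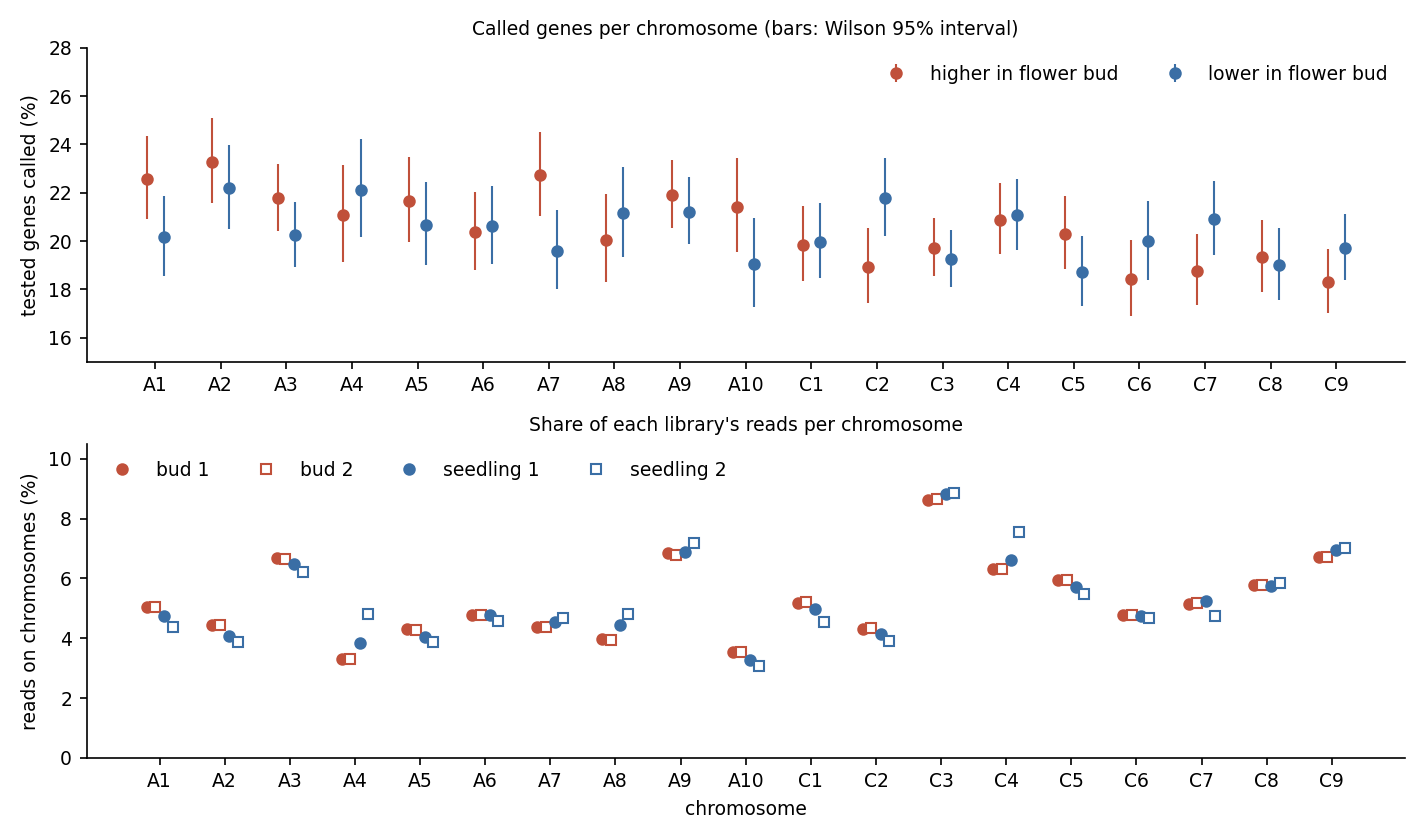
The upper part shows the percent of tested genes called higher (red) or lower (blue) in flower bud per chromosome, with Wilson 95% intervals and an axis that starts at 15%. The lower part shows the percent of each library's reads on chromosomes that fell on each chromosome, with flower bud libraries in red and seedling libraries in blue. Flower bud libraries coincide, while the seedling libraries lie apart most on A4 and C4.

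Along the chromosomes, gene order was taken from the number in the identifier. In the count table that number followed the start position on every chromosome it reaches, over 64918 genes. Beyond that table only the order is known, and no positions or strands. Neighbours resembled each other slightly: on C3 to C9, 22.7% of the genes higher in flower bud were followed by another higher gene, beside 19.4% of all tested genes. For lower genes the values were 24.6% beside 19.8%. The excess for rises was smallest on C8, with 19.5% beside 19.3%, and largest on C6, with 23.6% beside 18.4%. For falls it was largest on C5 and C9, with 25.4% beside 18.7%, and 26.3% beside 19.7%. Neighbours that overlap or are near-identical copies can share reads, and their part in this was not tested.

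Each chromosome was also cut into 10 parts with equal numbers of listed genes. The start of C3 was picked among them for its share of higher genes, so its counts are a description. Of 470 tested genes in the first of the 10 parts (positions 16203 to 4103391, in the coordinates of the deposited table, whose build is not given in the sources used here), 139 were higher (29.6%) and 67 lower (14.3%). This was the largest share of higher genes among the 70 parts of C3 to C9, whose median was 19.1%, and the third among the 190 parts of all chromosomes. The next largest on C3 to C9 was 26.4%, in the 9th part of C5. The part held 0.939% and 0.937% of all reads in flower bud, against 0.680% and 0.602% in seedling. Its share of higher genes lay above that of all tested genes under all 18 alternatives, although leaving out flower bud replicate 1 or 2 brought it to 15.5% or 14.9%, and it came to 7.66% beside 6.36% of all tested genes when a change of over 2-fold had itself to pass the test. At the other end of the range, the 8th part of C3 had 12.1% higher and 18.0% lower genes.

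Parts rich in falls lay elsewhere. The last part of C4 had 27.5% lower and 20.4% higher genes, the eighth of C7 27.1% and 18.9%, and the second of C9 26.7% and 18.0%. The first parts of the other chromosomes had no common direction. On C4, 26.0% were higher and 20.2% lower, on C7 18.4% and 13.5%, and on C9 23.4% and 18.4%, while on C5 17.7% were higher and 23.5% lower, on C6 40 genes were higher and 42 lower, and on C8 16.9% were higher and 19.7% lower. Expressed genes were also unevenly spread, since between 44.3% of listed genes in the 4th part of C4 and 70.0% in the third part of C5 were tested.

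Windows of 50 neighbouring tested genes, moved by 10 genes, were counted in the same way. Over the 2061 windows of C3 to C9 the number of higher genes ranged from 1 to 24 with a median of 10, and that of lower genes from 1 to 23 with a median of 9. The window with most rises covered the 221st to 270th tested genes of C3 (2060665 to 2417949), where 24 were higher and 5 lower. Its 50 genes together had rescaled values of 1310 and 1277 in flower bud, against 868 and 841 in seedling. The median gene had 16.2 and 16.2 in flower bud, against 10.4 and 6.93 in seedling. The higher genes in it numbered 10 and 11 without flower bud replicate 1 or 2, 15 without seedling replicate 2, 13 with a pseudocount of 4, and 5 when testing against a 2-fold change.

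The window with most falls of all 19 chromosomes lay on C5, over its 981st to 1030th tested genes, with 23 lower and 6 higher. The sums there were 553 and 570 in flower bud, against 848 and 842 in seedling, and the median gene had 4.37 and 5.27 in flower bud, against 8.91 and 8.25 in seedling. In this window the seedling libraries lay close together, and 24 genes were lower without seedling replicate 1 and 21 without replicate 2. The edgeR test also called 23 lower and 6 higher. C7 had a window with 21 lower genes over its 1371st to 1420th tested genes, and C3 had one with 20 between 17691200 and 18471879. The windows were picked for being extreme among many, so their counts are a description.

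**Figure D4:**
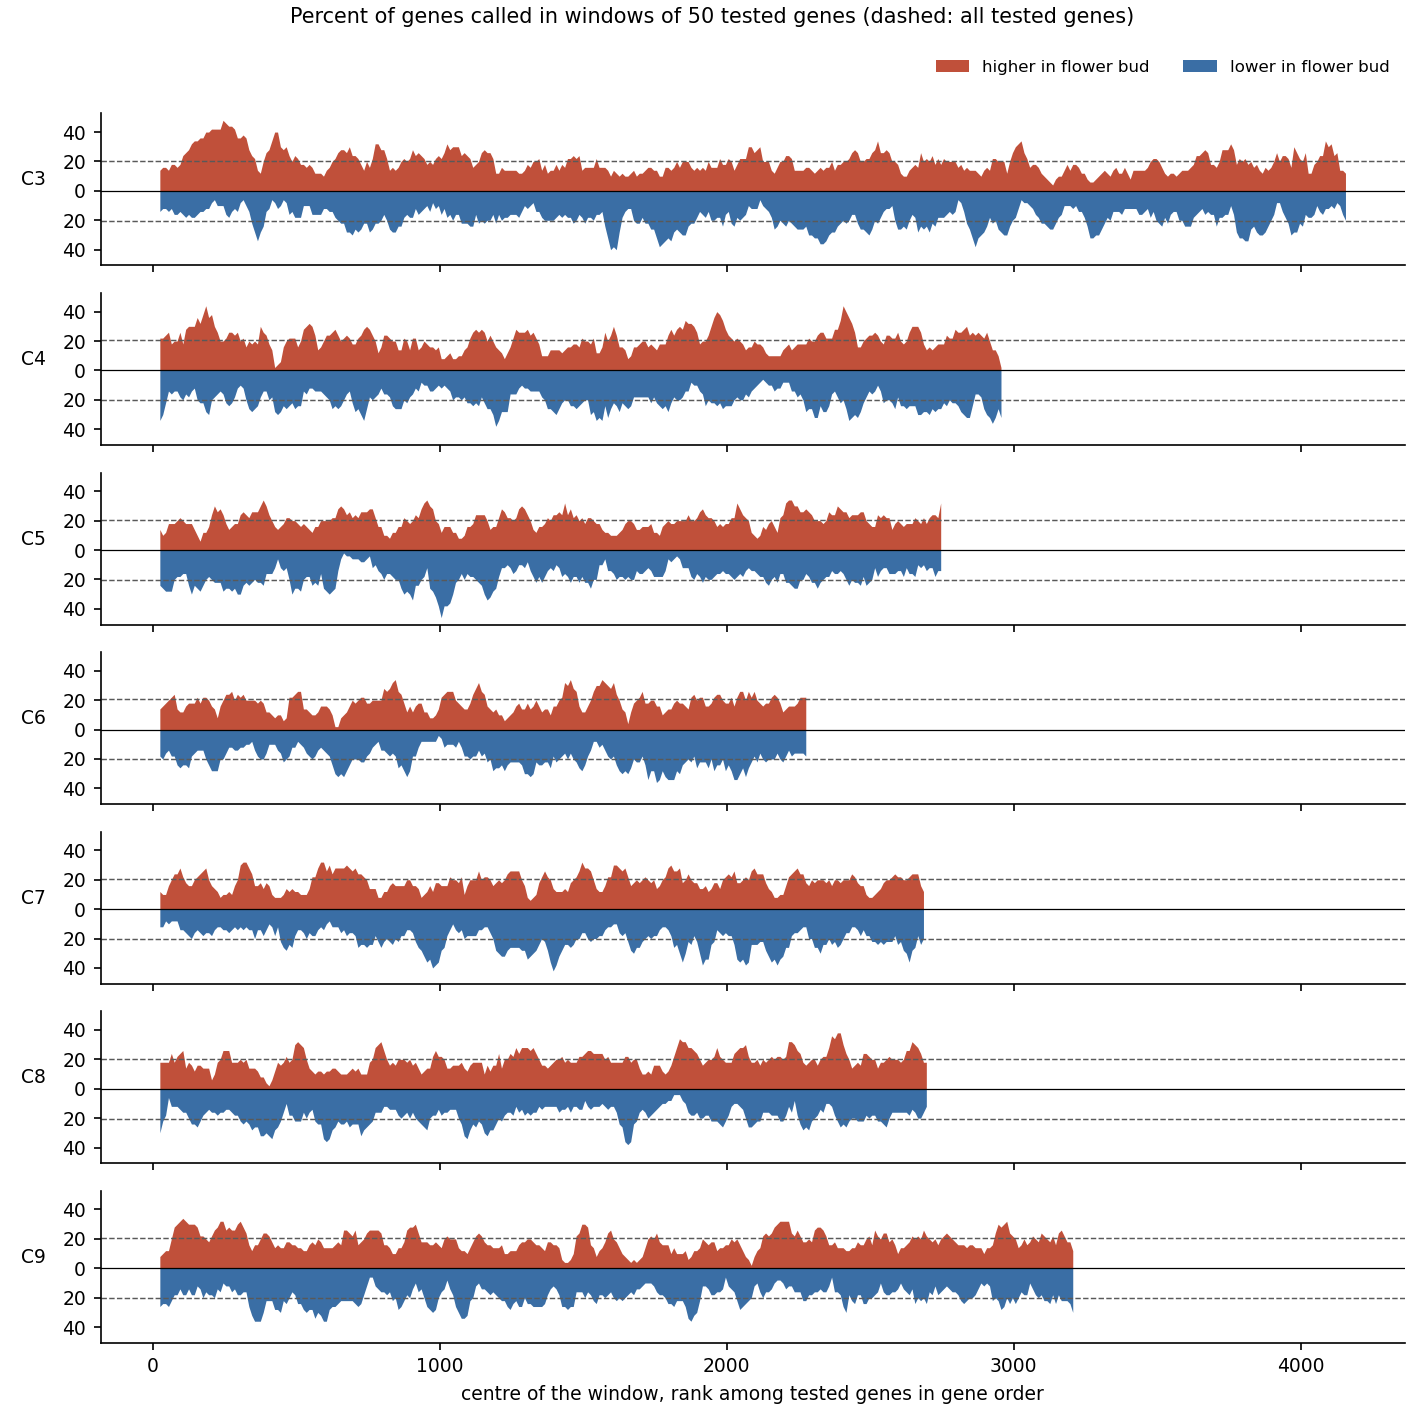
Percent of genes called higher (red, upward) and lower (blue, downward) in flower bud in windows of 50 tested genes along C3 to C9, in gene order and moved by 10 genes. Dashed lines mark the 20.5% and 20.3% of all tested genes. The peak of rises near the start of C3 reaches 24 of 50 genes, and the peak of falls on C5 reaches 23 of 50.

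Runs of at least 5 consecutive tested genes that moved in 1 direction numbered 22 on C3 to C9, 16 lower and 6 higher. They held 115 of the 20918 tested genes there. Over all 19 chromosomes there were 46 lower and 32 higher runs with 427 genes, and the longest held 11. The other 12 chromosomes had 30 lower and 26 higher. How many runs the called shares alone would give was not tested. The longest run of C3 to C9 held 8 genes lower in flower bud, on C3 between 18036957 and 18136368. The stretch has 12 gene models, and 6 of the 8 genes lie on the minus strand. Together the 8 genes had 38.4 and 34.1 in flower bud, against 205 and 212 in seedling, and 71.3 and 73.9 in siliques. The strongest was the second gene of the run, which had 0.14 and 0.277 in flower bud, against 42.5 and 27.7 in seedling. The last gene had 0 reads in flower bud, against 4.70 and 11.2 in seedling. The third gene of the run and the next one overlap each other on opposite strands, so their levels are uncertain where counting did not use strand, which is not given in the sources used here.

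A run of 6 lower genes on C5, the 1441st to 1447th listed there, opens the window with most falls. Its genes summed to 10.1 and 9.70 in flower bud, against 126 and 124 in seedling, with the strongest at 0.63 and 0.347 in flower bud, against 49.5 and 41.6 in seedling. The sums in siliques, 10.2 and 8.90, were close to those of flower bud. All 6 were called lower under 15 of 18 alternatives, and at least 5 under each of them. A second run of 6, near the start of C8, had 43.9 and 44.3 in flower bud, against 188 and 279 in seedling, but a pseudocount of 4 left 2 of its calls, as did testing against a 2-fold change. The run on C3 had all 8 calls under 11 of 18 alternatives and at least 4 under each.

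Among the 6 runs of higher genes, 3 lay on C4. The 5 genes of the most abundant one summed to 455 and 426 in flower bud, against 138 and 83.8 in seedling, and without flower bud replicate 1 or 2 it had 3 or 2 of its calls. Another, of 5 genes from the 342nd to the 348th listed on C4, summed to 120 and 134 in flower bud, against 21.6 and 12.5 in seedling, with single log2 changes between 1.04 and 5.07. It had all 5 calls under 9 of 18 alternatives, and 3 or 2 without flower bud replicate 1 or 2. The number of runs depends on the definition and on the scaling. With the authors' scaling there were 61 higher and 7 lower runs, and when any untested gene between members ended a run, 0 and 3.

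**Figure D5:**
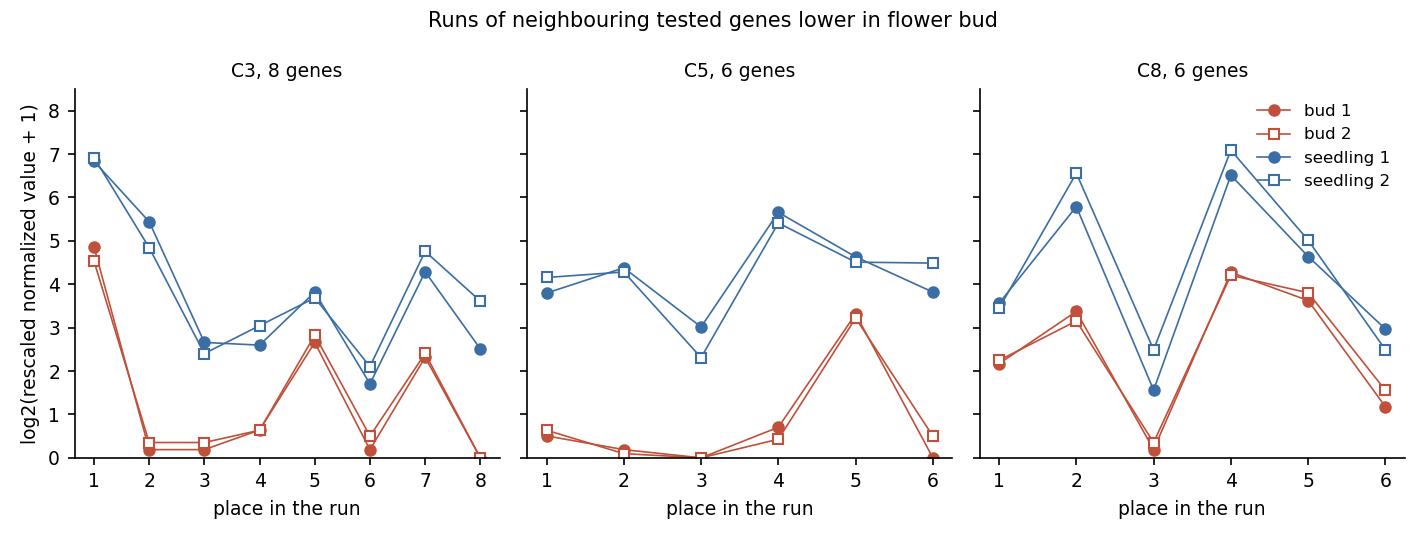
Level of each gene, as log2(rescaled normalized value + 1), in 3 runs of neighbouring tested genes lower in flower bud, in gene order. Flower bud libraries are red and seedling libraries blue, and lines only join genes of 1 library. In all 20 genes both flower bud libraries lie below both seedling libraries.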

How the data were processed

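The deposited normalized values are a signal for each gene that the authors scaled by TMM (trimmed mean of M values), going by the table's name. The second deposited table gives each gene's read count in every library. The submitters' processing notes name featureCounts, edgeR, HISAT2, SAMtools and GATK, without role or version. Values of each library were whole multiples of 1 step, and 100% gave whole reads within 0.05. For all 51324 shared genes these equalled the deposited counts.

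Tested genes had a value of at least 1 in at least 2 of the 4 libraries. TMM factors were recomputed over them. Limma 3.58.1 (trend, pseudocount 1) fitted all 6 libraries without a replicate block, leaving 3 residual degrees of freedom, and p-values were adjusted over all tested genes. The count tests used edgeR 4.0.16 and DESeq2 1.42.0 in R 4.3.3, on the recovered reads. Tables were made with Python 3.11.15. The limma fit was tested on simulated data.

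Named genes had to be called, be listed in the normalized table only, have a mean of at least 50 in the higher tissue and show no overlap; the 2 strongest in each direction are given. The genes, classes and tests were chosen with earlier results of these data known. The labels do not tell whether both libraries of a tissue are from different plants. The p-values therefore reflect only the spread between the samples, which may be technical. Intervals and bounds from 3 reads cover counting error only. Between 82.1% and 89.3% of read counts above 0 were even numbers, so reads of a gene may not be single fragments. The fold bounds from 3 reads would then be too high.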

Additional observations from a re-analysis of the deposited data

How the results depend on the processing

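The 18 alternatives were run on the counts of called genes, each chromosome, level class and run, and on the 4 named genes, whose directions and calls were the same in each. Over all chromosomes, higher genes numbered 15737 with the authors' scaling, 5323 with a pseudocount of 4, 15753 by adjusted p alone, and 3122 with limma's treat against a 2-fold change, which gave 5199 lower genes. On C3 to C9, the authors' scaling gave 6536 higher genes, and adjusted p alone gave 6591. A pseudocount of 4 gave 2168 higher and 2757 lower there, and treat 1238 and 2163. Leaving out 1 library at a time gave between 5222 and 12785 higher and between 8304 and 10666 lower genes over all chromosomes, and between 2092 and 5248 higher and between 3473 and 4448 lower on C3 to C9. The highest number of higher genes came without seedling replicate 1 and the lowest without flower bud replicate 1. The cause was not tested. The other 57 of 72 such counts stayed within 1.5 times. Of the values for single chromosomes, classes, stretches, runs and genes, 735 moved by more than 1.5 times, the counting interval or the spread, and 585 did not. A replicate block gave 10152 higher and 9980 lower genes, and 4102 and 4139 on C3 to C9. The labels give the tissues the same replicate numbers. Deviations of same-numbered flower bud and seedling libraries had a correlation of r = -0.007 across genes, which are not independent. Whether same-numbered libraries shared a batch was not tested. Halving the recovered reads before edgeR, an alternative added after seeing the data, gave 10724 higher and 10987 lower genes. In seedling replicate 2, with 3973408 reads, 1 read is worth the largest rescaled value of the 4 libraries, 0.33.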

Other observations

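Beyond C3 to C9, the parts of a chromosome with the largest shares of higher genes were the last ones of A2. With each chromosome cut into 10 parts, in the 9th part of A2 (27497229 to 30653845), 74 of 213 tested genes were higher in flower bud (34.7%) and 22.1% were lower, and in the last part (30661779 to 33414770) 68 of 223 were higher (30.5%) and 22.9% lower. The window of 50 tested genes with most rises of all 19 chromosomes lay on A3, between 6748755 and 7126480, with 25 higher and 5 lower genes and summed rescaled values of 1239 and 1294 in flower bud, against 729 and 823 in seedling. A4 showed the largest difference in read share of any chromosome, 3.3% and 3.31% in flower bud, against 3.83% and 4.80% in seedling. All 10 of its genes with the largest seedling share were called lower, but these genes were chosen on their seedling reads. On every chromosome between 8 and 10 of such 10 genes were called lower. The stretches were picked after their values were seen.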
